A study of Homo sapiens with 4 samples.

Results

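The proteasome genes are the protein-coding genes whose GENCODE symbol starts with PSMA, PSMB, PSMC, PSMD, PSME, PSMF or PSMG. The rule found 50 genes among the 60564 gene identifiers of the count files. RNA-seq was performed on Elf1, an established naïve human ESC line derived from an embryo, which was used in both conditions. The 2-D grown cells were adherent on plastic coated with Matrigel, and the 3-D grown cells were put as single cells into scaffolds of PEG-8-SH and PEG-8-Acr and stayed there for 21 days. Both conditions received ESC expansion medium. Before its transfer to Matrigel, the line had been kept on mouse embryonic feeder cells with FGF2, LIF and inhibitors of GSK3 and MEK. Each condition had 2 biological replicates, so 4 libraries of 1 line were compared and other lines were not analysed here.

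The proteasome degrades proteins that carry ubiquitin chains. Its core particle is a stack of rings, in which outer α rings guard the entrance and inner β rings hold the proteases, and its regulatory particle consists of a base of ATPases that unfold the substrate and a lid that removes the ubiquitin. Under interferon, immune forms replace the catalytic β subunits, other activators can cap the core in place of the regulatory particle, and dedicated chaperones assemble each part. Pluripotent stem cells are known for high proteasome activity. By known role, 8 of the 50 genes encode α ring subunits, 7 constitutive β ring subunits and 4 immune or thymus β subunits. Another 9 encode base subunits, 8 lid subunits, 3 chaperones of base assembly and 4 chaperones of core assembly. The activators, counted together with a partner of one of them, make up 5, and 1 gene encodes an inhibitor. The last, PSMC3IP, acts in meiotic recombination and shares only the start of its symbol.

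Reads of a library summed to between 18276147 and 33833778 over all genes, with both 3-D libraries below both 2-D libraries, and the proteasome genes held 0.461% to 0.491% of the reads of each. Levels are CPM, counts scaled to the library's total after TMM normalization, and a gene is called where edgeR's quasi-likelihood test gave a Benjamini-Hochberg adjusted p below 0.05 over the 22555 genes tested. Each fold change has 3-D grown cells on top and 2-D grown cells below. Replicates of a condition had a biological coefficient of variation of 5.10% over all genes. Of 8 core pluripotency markers, including POU5F1, NANOG and SOX2, all were detected and none was called. Of 8 naïve markers KLF5 was called higher in 3-D grown cells. KLF17 had 16 to 29 counts and DPPA5 at most 4 counts in a library. DNMT3L (log2 fold change -0.06), TFCP2L1 (-0.06) and DPPA3 (-0.07) lay below 0 and were not called. KLF4 (0.09), ARGFX (0.12, 8 to 13 counts) and KLF17 (0.51) lay above 0 and were not called either. Of 6 primed markers SFRP2 and THY1 were called higher in 3-D grown cells, and the median log2 fold change was 0.17 for the primed and 0.09 for the naïve markers that were tested. None of the neural, mesoderm, endoderm and trophoblast markers was called. Of 7 fibroblast markers 3 were called higher in 3-D grown cells (COL1A1, COL3A1 and POSTN). All 7 summed to 465 and 458 CPM in the 2-D and 467 and 512 CPM in the 3-D libraries. Most of that was COL1A2, with 325 and 316 CPM in 2-D and 301 and 325 CPM in 3-D grown cells. COL1A2 (log2 fold change -0.04) and PDGFRB (0.02) were not called. DCN had 5 and 6 counts in the 2-D and 2 and 2 counts in the 3-D libraries. LUM had 3 and 10 against 5 and 17 counts, and neither gene was tested. The part of such cells in the results was not tested. In bulk RNA, fewer cells of a kind and less RNA per cell cannot be told apart.

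Of the 50 proteasome genes, 46 passed the filter on low counts, and the exceptions were PSMA8, PSMB8, PSMB9 and PSMB11. The test called 9 of them, 3 higher in 3-D grown cells (PSMC1, PSMD8 and PSME3IP1) and 6 lower (PSMA1, PSMA3, PSMA5, PSMA7, PSMB4 and PSMD10). Among all tested genes 4.54% were called higher and 3.36% lower, and among the 14305 tested protein-coding genes 5.89% were called higher and 4.1% lower. The median log2 fold change of the 46 genes was -0.00079, beside -0.00014 for all tested and 0.0086 for tested protein-coding genes. The sum of all 50 genes was 4828 and 4772 CPM in the 2-D and 4799 and 4704 CPM in the 3-D libraries, and these groups overlap. The libraries of the conditions did not overlap for 18 genes that were higher and 16 that were lower, where 50.5% of all tested genes did not overlap.

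The particles differed in where their genes lay. All 7 tested α ring genes were below 0 on the log2 scale and 4 were called lower, with a median of -0.19. Of 7 β ring genes 5 were below 0 and 1 was called lower, with a median of -0.06. The base had 8 of 9 genes above 0 and 1 called higher, with a median of 0.05, and the lid had 4 genes on each side, 1 called higher, with a median of 0.02. All 5 called core ring genes were thus lower, and both called genes of the base and lid were higher.

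**Figure D1:**
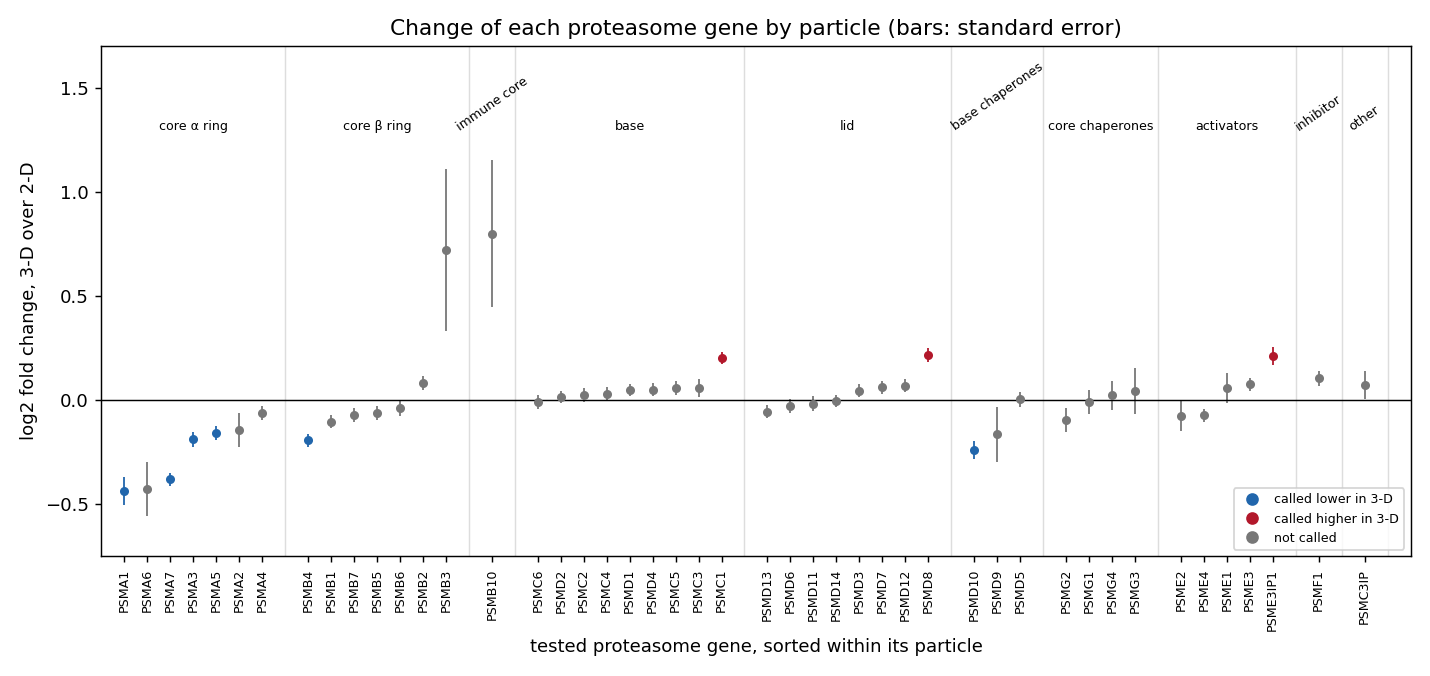
Log2 fold change (3-D over 2-D) on the vertical axis for each of the 46 tested proteasome genes, grouped by particle and sorted within it. Points are estimates of edgeR, bars are standard errors, blue and red mark genes called lower and higher, and the group named other holds PSMC3IP. The 7 α ring genes lie below 0, and PSMB3 and PSMB10 carry the widest errors.

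Ratios within a library do not depend on how libraries are scaled to each other. The summed CPM of both core rings over that of the base and lid was 0.542 and 0.546 in 2-D and 0.490 and 0.478 in 3-D grown cells, a difference of -11.1% between the means. The 3-D libraries were both below the 2-D libraries. For the α ring over the base and lid, the ratio was 0.266 and 0.268 in 2-D and 0.228 and 0.222 in 3-D grown cells, -15.6% between means. For the β ring it was 0.277 and 0.278 in 2-D and 0.261 and 0.256 in 3-D grown cells, -6.67% between means. The α ring was also lower against the β ring, at 0.961 in each 2-D library and at 0.873 and 0.865 in 3-D grown cells. The base over the lid was 1.163 and 1.176 in 2-D and 1.178 and 1.189 in 3-D grown cells, with no overlap. The difference of 1.23% between these means is close in size to the gap between replicates. These ratios are descriptions over 2 libraries per condition and were not tested. Without the genes whose reads can be shared with another gene or a copy, the means of the core rings over the base and lid differed by -10.2%.

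**Figure D2:**
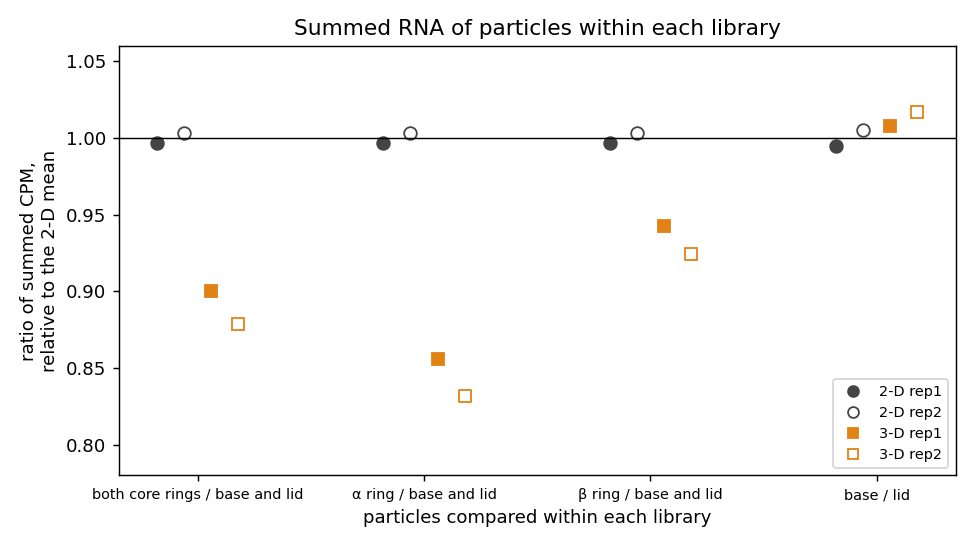
Ratio of summed CPM between particles within each library, divided by the mean ratio of the 2-D libraries, for 2-D (circles) and 3-D (squares) replicates 1 (filled) and 2 (open). The vertical axis does not start at 0. Both 3-D libraries lie below both 2-D libraries in the 3 ratios over the base and lid, and all 4 libraries lie close to 1 for the base over the lid.

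The direction of the base and lid depends on the scaling, while that of the core does not. When libraries were scaled by their size alone, the median of the 46 proteasome genes moved to -0.07, and the base and lid had 3 genes above and 14 below 0, with 2 called higher and 1 (PSMD13) lower. Under that scaling the core rings still had 2 genes above and 12 below 0, with 10 called lower in place of 5. Under offsets for length and GC, the α ring kept 7 genes below 0 and 4 called lower at a median of -0.14. The median of the β ring was -0.03. The length in these offsets is that of all annotated exons of a gene, not the mRNA length given below. Over the 46 tested genes, the log2 fold change had a Spearman's rho of 0.28 with mRNA length and of 0.37 with GC content, a description over genes that share their libraries. Median mRNA length was 1023 bases in the core rings and 1754 bases in the base and lid.

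Promoters are shown for PSMC1 and PSMD8, the called genes of the base and lid, and for PSMA3 and PSMA5, called genes of the α ring with no shared reads, so that called genes of both directions can be read side by side. They are RefSeq sequences of GRCh38.p14, from 250 bases before to 50 after the start of the gene, written 5′ to 3′ on the gene's strand. PSMC1 covers chr14:90256303-90256602 and PSMD8 chr19:38374321-38374620 on the plus strand, PSMA3 covers chr14:58244593-58244892 on the plus strand, and PSMA5 chr1:109426399-109426698 on the minus strand. Capitals mark the motifs ACTTCCGG, the core that ETS factors bind, and CCAAT, the box that NF-Y binds, on either strand. The promoter of PSMB4, a gene of the β ring called lower with no shared reads, is not shown and held neither motif. Reads of PSMC1 can be shared with NRDE2.
PSMC1: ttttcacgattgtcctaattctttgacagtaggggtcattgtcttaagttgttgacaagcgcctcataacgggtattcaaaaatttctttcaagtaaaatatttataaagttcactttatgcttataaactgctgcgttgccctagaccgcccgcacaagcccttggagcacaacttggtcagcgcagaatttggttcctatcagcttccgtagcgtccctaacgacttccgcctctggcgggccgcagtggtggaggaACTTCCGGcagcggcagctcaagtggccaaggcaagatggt
PSMD8: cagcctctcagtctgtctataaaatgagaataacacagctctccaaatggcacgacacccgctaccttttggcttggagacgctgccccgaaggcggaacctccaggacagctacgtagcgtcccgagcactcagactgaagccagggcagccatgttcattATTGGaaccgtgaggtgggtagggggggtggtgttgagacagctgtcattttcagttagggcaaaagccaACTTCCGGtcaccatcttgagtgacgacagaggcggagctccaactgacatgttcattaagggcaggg
PSMA3: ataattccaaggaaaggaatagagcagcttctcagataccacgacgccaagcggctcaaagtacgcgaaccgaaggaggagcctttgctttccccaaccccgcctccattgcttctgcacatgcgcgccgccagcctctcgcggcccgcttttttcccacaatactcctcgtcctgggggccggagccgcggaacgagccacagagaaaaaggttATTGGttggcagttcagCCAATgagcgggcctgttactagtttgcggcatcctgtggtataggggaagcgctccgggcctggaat
PSMA5: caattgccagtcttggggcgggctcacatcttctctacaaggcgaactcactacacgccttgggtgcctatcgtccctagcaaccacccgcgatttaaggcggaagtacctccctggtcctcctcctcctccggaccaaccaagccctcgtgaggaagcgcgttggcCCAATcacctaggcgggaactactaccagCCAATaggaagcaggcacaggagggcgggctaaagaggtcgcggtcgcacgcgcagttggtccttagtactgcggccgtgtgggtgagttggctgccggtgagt

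Promoters were matched for 44 of the 50 genes, of 35116 promoters in the RefSeq table. PSMA7, PSMB1, PSMB6, PSMB7, PSMD4 and PSMG3 had no entry. ACTTCCGG was found in 11 of the 44 (25%) and in 4.14% of all promoters of this length. It was in all 3 genes called higher, in none of the 5 genes called lower that have an entry, and in 6 of 16 base and lid and 2 of 11 core ring genes. CCAAT was in 22 of the 44 (50%) and in 34.6% of all promoters, and in 3 of the 5 genes called lower and 2 of the 3 called higher. TGACNNNGC, which holds the sequence bound by NFE2L1 and its relatives with small MAF proteins, was in 15 of the 44 (34.1%) and in 13.3% of all promoters, and in none of the 8 called genes with an entry. The motifs were searched on both strands, and were chosen with the calls known, so these shares are descriptions. A gene was counted if any of its promoters held the motif, and the 44 genes have 55 promoters. The share of all promoters counts each promoter singly, so the shares of genes and of promoters are not fully alike.

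In the α ring, PSMA7 had the smallest adjusted p of all proteasome genes. PSMA7 (ENSG00000101182, chr20:62136733-62143440 of hg38) had 157 and 153 CPM in the 2-D and 120 and 118 CPM in the 3-D libraries. It fell by 0.38 on the log2 scale (standard error 0.03, edgeR, adjusted p = 1.62e-05), with both 3-D libraries well under the 2-D libraries. PSMA3 (chr14:58244843-58272012), whose promoter is shown above, had 134 and 140 CPM in 2-D and 124 and 116 CPM in 3-D grown cells. On the log2 scale it fell by 0.19 (standard error 0.04, edgeR, adjusted p = 0.00698), and without 2-D replicate 2 the change was -0.16 and no longer called (edgeR, adjusted p = 0.0578). PSMA5 (chr1:109399042-109426448) had 115 and 111 CPM in 2-D and 103 and 99.9 CPM in 3-D grown cells, groups that did not overlap. Its log2 fold change of -0.16 (standard error 0.03, edgeR, adjusted p = 0.0120) was not called with DESeq2 (adjusted p = 0.0907), with edgeR's likelihood ratio test (adjusted p = 0.0506) or without 2-D replicate 1 (edgeR, adjusted p = 0.170). All of these genes encode structural subunits, and the termini of α subunits form the gate of the core.

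PSMA1 (ENSG00000129084, chr11:14504874-14643635) had the largest fall of the α ring. It had 38.3 and 38.1 CPM in the 2-D and 29.9 and 26.4 CPM in the 3-D libraries, which do not overlap. The log2 fold change was -0.44 (standard error 0.07, edgeR, adjusted p = 0.00190) and lay between -0.53 and -0.35 when a library was left out. A readthrough gene on the same strand covers 67.0% of its exons and was listed at 0 reads in every library, and how the counting treats reads that fit both genes is not given in the sources used here. PSMA6 also shares reads, with 81.4% of its exons under a readthrough gene, and its pseudogenes held 37.8% as many counts as the gene itself. It had 9.44 and 7.95 CPM in 2-D and 7.06 and 5.86 CPM in 3-D grown cells, with a log2 fold change of -0.43 that was not called (standard error 0.13, edgeR, adjusted p = 0.0689). PSMA6 was called without 2-D replicate 2 (-0.54, edgeR, adjusted p = 0.0303) and without 3-D replicate 1 (-0.57, edgeR, adjusted p = 0.00619).

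The other α genes were not called. PSMA4 had the highest CPM of the ring, 184 and 181 in 2-D and 178 and 171 in 3-D grown cells. Its log2 fold change of -0.06 (edgeR, adjusted p = 0.284) became -0.09 and was called without 3-D replicate 1 (edgeR, adjusted p = 0.0381). PSMA2, which lies whole under the exons of a readthrough gene, had 15.6 and 15.6 CPM in 2-D and 14.4 and 13.9 CPM in 3-D grown cells (log2 fold change -0.14, edgeR, adjusted p = 0.346). For both genes the 3-D libraries lay under the 2-D libraries. PSMA8, the α subunit of germ cell proteasomes, had at most 1 count in a library and was not tested.

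Of the β ring, only PSMB4 was called. PSMB4 (ENSG00000159377, chr1:151399560-151401937), a subunit with no protease site, had 146 and 144 CPM in the 2-D and 127 and 127 CPM in the 3-D libraries. It fell by 0.19 on the log2 scale (standard error 0.03, edgeR, adjusted p = 0.00158), and the libraries did not overlap. The proteases themselves differed less. PSMB5, the chymotrypsin-like protease, had 102 and 99.0 CPM in 2-D and 97.4 and 95.3 CPM in 3-D grown cells (log2 fold change -0.06, standard error 0.03, edgeR, adjusted p = 0.313). PSMB6, the caspase-like protease, had 72.9 and 69.9 CPM in 2-D and 70.2 and 69.0 CPM in 3-D grown cells (-0.04, standard error 0.04, edgeR, adjusted p = 0.659). PSMB7, the trypsin-like protease, had 114 and 116 CPM in 2-D and 112 and 106 CPM in 3-D grown cells (-0.07, standard error 0.03, edgeR, adjusted p = 0.227). The groups overlapped for PSMB6 and not for PSMB5 and PSMB7, and PSMB7 was called without 3-D replicate 1 (-0.11, edgeR, adjusted p = 0.0264).

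PSMB1 and PSMB2 are structural β subunits on opposite sides of 0. PSMB1 had 122 and 117 CPM in 2-D and 110 and 112 CPM in 3-D grown cells, and its log2 fold change of -0.10 (edgeR, adjusted p = 0.0710) was called without 3-D replicate 2 (-0.11, edgeR, adjusted p = 0.0303). PSMB2 had 119 and 117 CPM in 2-D and 128 and 122 CPM in 3-D grown cells, and its log2 fold change of 0.08 (edgeR, adjusted p = 0.162) was called without 3-D replicate 2 as well (0.12, edgeR, adjusted p = 0.0151). PSMB3, the last structural subunit, has an identical copy on an alternate contig of chromosome 17. It had 127 and 304 counts in the 2-D and 319 and 112 counts in the 3-D libraries, or 3.69 and 9.87 against 15.5 and 6.25 CPM. Replicates of PSMB3 thus differed more than the conditions, and the libraries overlapped. Its log2 fold change of 0.72 (standard error 0.39, edgeR, adjusted p = 0.322) was -0.10 without 3-D replicate 1 (edgeR, adjusted p = 0.895), 0.16 without 2-D replicate 1 (edgeR, adjusted p = 0.696), 1.58 without 2-D replicate 2 (edgeR, adjusted p = 2.90e-07) and 1.22 without 3-D replicate 2 (edgeR, adjusted p = 1.09e-04). With no filter on low counts PSMB3 was called higher (edgeR, adjusted p = 9.08e-08), although its libraries overlap.

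**Figure D3:**
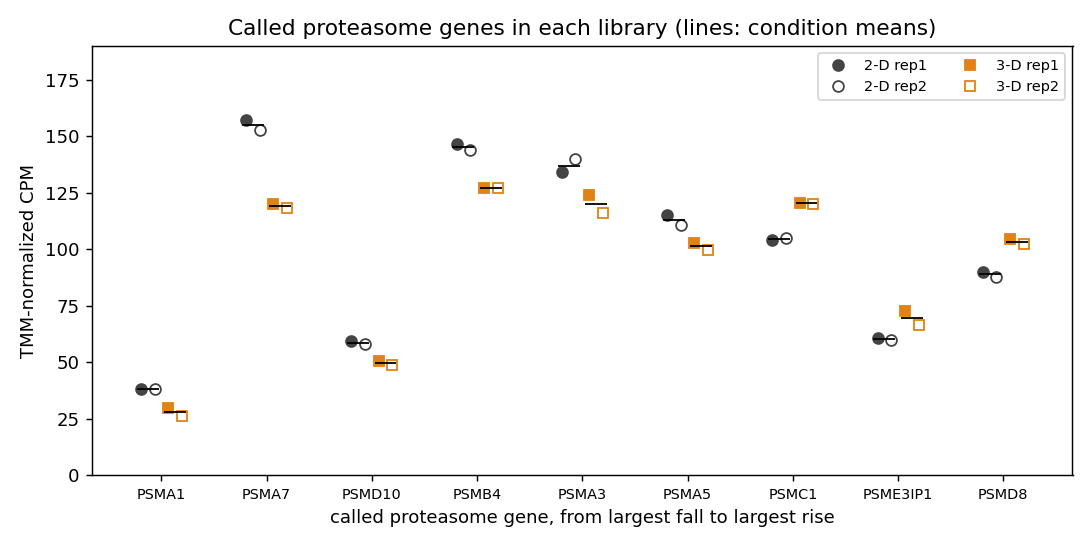
TMM-normalized CPM of the 9 called proteasome genes in each library, for 2-D (circles) and 3-D (squares) replicates 1 (filled) and 2 (open), with short lines at condition means and genes in order of their log2 fold change. In each gene both libraries of one condition lie apart from both of the other.

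The immune core gave few reads. PSMB8 (chr6:32840717-32844679) and PSMB9 (chr6:32844136-32859851), which replace PSMB5 and PSMB6 after interferon, were listed at 0 in all 4 libraries. Each has 7 near-identical copies on alternate contigs of chromosome 6. A window was taken that reaches 500 kb to either side of the midpoint of PSMB8 (chr6:32342698-33342698). In it, 25 of 37 protein-coding genes were listed at 0 in every library and 29 at 5 counts or fewer in every library. In the same window, chosen after their values were seen, RPS18, a ribosomal protein gene that every cell uses, had 6 and 3 counts in the 2-D and 3 and 1 counts in the 3-D libraries, and RING1, a Polycomb gene, had 0. The zeros of PSMB8 and PSMB9 are therefore given as listed values with no fold change and no statement that the genes are silent.

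PSMB10 (chr16:67934506-67936864), the immune form of the trypsin-like protease, lies outside that region and had 16 and 17 counts in the 2-D and 17 and 17 counts in the 3-D libraries. At the smaller depth of the 3-D libraries these are 0.465 and 0.552 CPM in 2-D and 0.827 and 0.948 CPM in 3-D grown cells. The libraries did not overlap, and the log2 fold change of 0.80 was not called (standard error 0.35, edgeR, adjusted p = 0.213). A readthrough gene covers 56.1% of the exons of PSMB10 and had 110 and 93 counts in 2-D and 58 and 52 counts in 3-D grown cells. PSMB11, the thymus form, had 2 counts in 1 library and none in the others and was not tested. Of 14 genes of class I antigen presentation and the interferon response, 9 were tested and none passed the test, at a median log2 fold change of -0.03. TAP1 of that list, a neighbour of PSMB9, was listed at 0. The summed level of 8 leukocyte markers was 11.2 to 15.8 CPM over the libraries. Nearly all of it was CD74, at 10.9 to 15.4 CPM, the only one of them that was tested. Each other marker had at most 6 counts in a library, and 4 were at or under 3 counts in every library.

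In the base, PSMC1 was the only called gene. PSMC1 (ENSG00000100764, chr14:90256527-90275429), an ATPase of the ring that opens the gate of the core, had 104 and 105 CPM in the 2-D and 121 and 120 CPM in the 3-D libraries. It rose by 0.20 on the log2 scale (standard error 0.03, edgeR, adjusted p = 0.00147), and the libraries did not overlap. NRDE2 on the opposite strand covers 83.2% of the exons of PSMC1 and had a log2 fold change of 0.09 (edgeR, adjusted p = 0.181), and without a stated strand setting reads of both cannot be told apart. The ATPases PSMC2, PSMC3, PSMC4, PSMC5 and PSMC6 had log2 fold changes from -0.0095 to 0.06 (edgeR, adjusted p from 0.376 to 0.915). PSMC6, at the lower end, had 105 and 100 CPM in 2-D and 101 and 103 CPM in 3-D grown cells. Of the genes that are no ATPases, PSMD1 and PSMD2, the large scaffolds of the base, had the highest CPM, with 306 and 306 against 320 and 312 for PSMD1. For PSMD2 they were 291 and 293 in 2-D and 296 and 293 in 3-D grown cells. The ubiquitin receptor PSMD4 had 121 and 120 against 126 and 123 CPM, and none of these 3 was called (edgeR, adjusted p from 0.384 to 0.847).

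In the lid, PSMD8 was called. PSMD8 (ENSG00000099341, chr19:38374563-38383850), a scaffold subunit that joins the lid late, had 90.2 and 87.8 CPM in the 2-D and 104 and 102 CPM in the 3-D libraries. Its log2 fold change of 0.22 (standard error 0.03, edgeR, adjusted p = 0.00170) was the largest of the base and lid, and the libraries did not overlap. The other lid genes stayed close to 0. PSMD14, the deubiquitinase, had 130 and 130 CPM in 2-D and 129 and 131 CPM in 3-D grown cells (log2 fold change -0.0041, standard error 0.03, edgeR, adjusted p = 0.959). PSMD13 had the lowest log2 fold change, -0.06 (edgeR, adjusted p = 0.362), with 97.9 and 96.7 CPM in 2-D and 93.2 and 94.1 CPM in 3-D grown cells. The scaffold subunits PSMD3, PSMD6, PSMD11 and PSMD12 and PSMD7, the partner of PSMD14, lay between -0.03 and 0.07 (edgeR, adjusted p from 0.239 to 0.859). An opposite-strand lncRNA covers 51.6% of the exons of PSMD7, so its counts are uncertain.

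Among the assembly chaperones only PSMD10 was called. PSMD10 (ENSG00000101843, chrX:108084207-108091549), also known as gankyrin, escorts an ATPase of the base during its assembly. It had 59.6 and 58.0 CPM in the 2-D and 50.7 and 48.9 CPM in the 3-D libraries, and fell by 0.24 on the log2 scale (standard error 0.04, edgeR, adjusted p = 0.00528). The libraries did not overlap, and pseudogenes of PSMD10 held 6.81% as many counts as the gene. The other chaperones of the base were PSMD5, with 76.0 and 75.9 against 76.0 and 76.1 CPM and a log2 fold change of 0.0025 (edgeR, adjusted p = 0.980), and PSMD9, with 5.34 and 5.55 against 5.01 and 4.69 CPM and one of -0.16 (edgeR, adjusted p = 0.534). A readthrough gene covers 28.8% of the exons of PSMD9.

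Chaperones that build the core from the α ring up are PSMG1 to PSMG4, and none was called. Their sum was 120, 124, 120 and 120 CPM in 2-D replicates 1 and 2 and 3-D replicates 1 and 2. PSMG2 had the lowest log2 fold change, -0.10 (edgeR, adjusted p = 0.386), with 37.2 and 35.8 CPM in 2-D and 34.1 and 34.3 CPM in 3-D grown cells. PSMG3 had the highest, 0.04 (edgeR, adjusted p = 0.876), with 8.30 and 7.40 against 8.22 and 7.98 CPM, and its libraries overlapped. PSMG1 and PSMG4 lay between these. POMP, a maturation factor of the β ring that the symbol rule leaves out, had 109 and 110 CPM in the 2-D and 90.8 and 92.0 CPM in the 3-D libraries. It fell by 0.26 on the log2 scale (standard error 0.03, edgeR, adjusted p = 3.95e-04), with no overlap.

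Of the activators, which cap the core without the need for ubiquitin, none was called, and PSME3IP1, a partner of PSME3, was. PSME3IP1 (ENSG00000172775, chr16:57152466-57186116) had 60.7 and 59.8 CPM in the 2-D and 72.6 and 66.7 CPM in the 3-D libraries, which did not overlap. It rose by 0.21 on the log2 scale (standard error 0.04, edgeR, adjusted p = 0.0117). It was not called with DESeq2 (adjusted p = 0.0723), with library size only (edgeR, adjusted p = 0.0504), without 2-D replicate 2 (edgeR, adjusted p = 0.0670) or without 3-D replicate 1 (edgeR, adjusted p = 0.0592). PSME3, the nuclear activator, had 221 and 223 CPM in 2-D and 239 and 229 CPM in 3-D grown cells, a log2 fold change of 0.07 (edgeR, adjusted p = 0.194) that was called without 3-D replicate 2 (0.11, edgeR, adjusted p = 0.00728). PSME4, an activator tied to acetylated histones, had 362 and 365 CPM in 2-D and 340 and 350 CPM in 3-D grown cells. Its log2 fold change of -0.07 (edgeR, adjusted p = 0.181) was called without 3-D replicate 2 (-0.09, edgeR, adjusted p = 0.0155). The interferon-inducible pair lay on both sides of 0, PSME1 at 0.06 with 19.1 and 18.7 against 19.8 and 19.6 CPM, and PSME2 at -0.08 with 24.2 and 22.9 against 21.6 and 23.1 CPM (edgeR, adjusted p = 0.724 and 0.609). The inhibitor PSMF1 had 62.3 and 61.8 CPM in 2-D and 67.2 and 66.0 CPM in 3-D grown cells (log2 fold change 0.10, edgeR, adjusted p = 0.124), and the groups did not overlap. PSMC3IP had a log2 fold change of 0.07 (edgeR, adjusted p = 0.622) and shares 57.2% of its exons with MLX on the opposite strand.

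Levels per kb of mRNA, which depend on the transcript length taken for each gene, spread widely within a particle whose subunits occur in equal number. Among the tested genes, in 2-D grown cells, the α ring ranged from 8.5 CPM per kb for PSMA6 to 161 CPM per kb for PSMA7, and the β ring from 8.89 CPM per kb for PSMB3 to 158 CPM per kb for PSMB4. The base ranged from 23.8 CPM per kb (PSMC1) to 100 CPM per kb (PSMD2) and the lid from 33.2 CPM per kb (PSMD12) to 83.2 CPM per kb (PSMD7). The lowest tested genes of the core rings are among those with shared reads or copies. So are PSMC1, the lowest of the base, and PSMD7, the highest of the lid. The length used is that of 1 transcript per gene. PSMC1, at 4390 bases, has the longest of the base, where the median is 2163 bases. PSMD12, at 4356 bases, has the longest of the lid, where the median is 1610 bases. The highest single levels in 2-D grown cells were those of the core genes PSMA7, PSMB4, PSMA3, PSMB1 and PSMB7. They were at 161, 158, 143, 134 and 117 CPM per kb, and the libraries of PSMA7 and PSMB4 overlapped. This did not hold for the core as a whole. The median in 2-D grown cells was 32.0 CPM per kb in the α ring and 96.4 in the β ring. It was 60.6 in the base and 71.5 in the lid. Both core rings together had a median of 64.1 CPM per kb, beside 65.8 for the base and lid. In 3-D grown cells PSMB4 was at 138 and PSMA3 at 126 CPM per kb, and PSMA7 at 124 and PSMB1 at 125 CPM per kb did not stand apart from PSMA3. The chaperones and activators ranged from 2.00 CPM per kb (PSMD9) to 69.8 CPM per kb (PSME3) in 2-D grown cells.

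**Figure D4:**
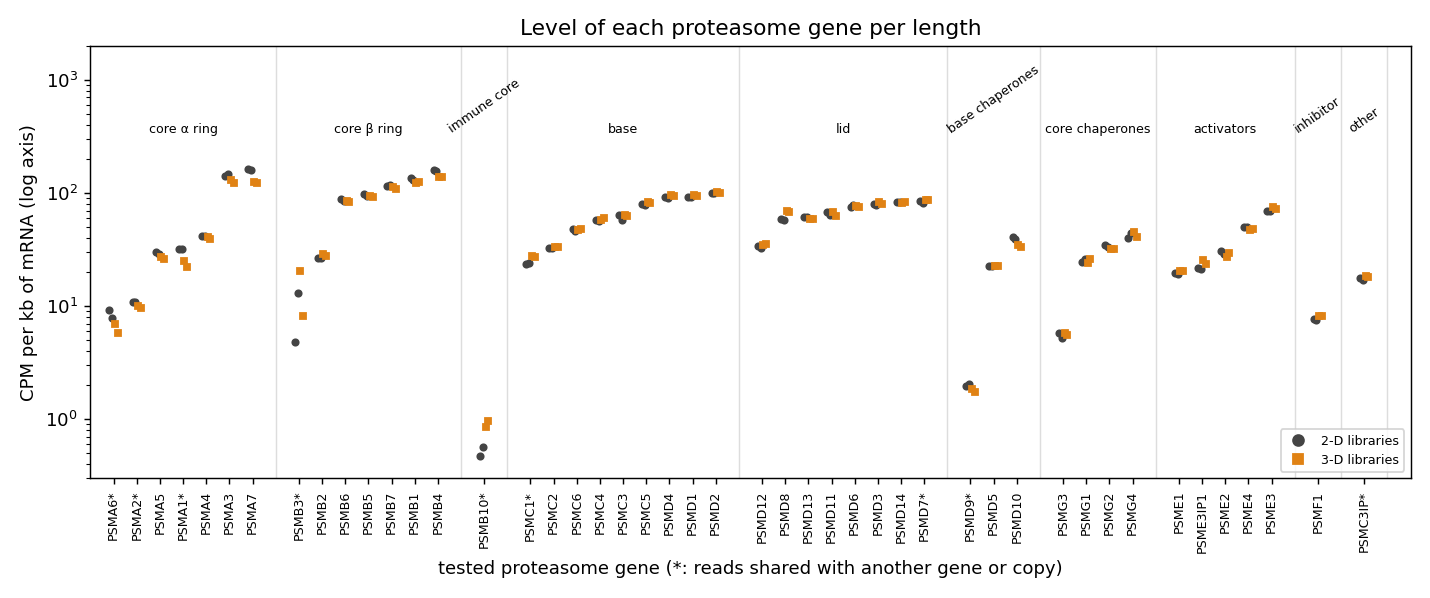
Level of each of the 46 tested proteasome genes in CPM per kb of mRNA on a log axis, grouped by particle, for 2-D (circles) and 3-D (squares) libraries. Stars mark genes whose reads can be shared with another gene or a copy, which include the lowest tested genes of the core rings, PSMA6 at 8.5 and PSMB3 at 8.89 CPM per kb in 2-D grown cells.

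Genes around the proteasome were taken from lists by role. Of 10 further parts of the proteasome, which bind it or help to assemble it, 1 was called higher and 1 lower, with a median log2 fold change of 0.02. The one called higher was TXNL1, a redox protein of the regulatory particle, at 94.6 and 91.7 CPM in 2-D and 99.7 and 106 CPM in 3-D grown cells (log2 fold change 0.14, edgeR, adjusted p = 0.0348), and the one called lower was POMP. SEM1, the smallest lid subunit, had 83.5 and 79.9 against 83.3 and 67.2 CPM, with overlapping libraries (-0.12, edgeR, adjusted p = 0.389). Of 14 genes that regulate proteasome genes 2 were called higher and 1 lower. NFE2L1, the factor that raises proteasome genes when activity falls short, had 249 and 246 CPM in 2-D and 279 and 277 CPM in 3-D grown cells (0.17, edgeR, adjusted p = 0.00374). NFYB, a part of NF-Y, had a log2 fold change of 0.17 (edgeR, adjusted p = 0.0450), and DDI2, the protease that activates NFE2L1, one of -0.11 (edgeR, adjusted p = 0.0468), with 20.6% of its exons under another gene. The groups did not overlap for NFE2L1, NFYB and DDI2.

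Upstream of the proteasome, 8 genes of ubiquitin and its activation had 1 called higher and 2 lower. UBE2L3, a ubiquitin-conjugating enzyme, rose from 124 and 124 CPM in 2-D to 141 and 149 CPM in 3-D grown cells (log2 fold change 0.23, edgeR, adjusted p = 0.00107). RPS27A, which encodes ubiquitin fused to a ribosomal protein, fell by 0.19 on the log2 scale (edgeR, adjusted p = 0.0111). Of 13 genes that deliver substrates, NSFL1C, a cofactor of the segregase VCP, was called higher (0.21, edgeR, adjusted p = 0.00294) and UBQLN2, a shuttle factor, lower (-0.13, edgeR, adjusted p = 0.0199). These companion lists had medians of 0.0055 and -0.0025, close to that of all tested genes.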

How the data were processed

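RNA was measured by RNA-seq in naïve human Elf1 ESCs from 2-D culture and from 3-D scaffolds, 2 libraries each. Ribosomal RNA was depleted, and per the labels the authors used Trim Galore 0.6.3, HISAT2 2.1.0 and featureCounts 1.6.4 on hg38, with genes of GENCODE 30. The deposited counts are whole reads per gene and library, without normalization. Strand and multi-mapping settings are not given in the sources used here. The normalized table of the authors, from DESeq2 2.11.40.6, was not used.

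Tests were run in edgeR 4.0.16 (R 4.3.3, filterByExpr, TMM, quasi-likelihood test in legacy mode, condition alone, Benjamini-Hochberg adjustment over 22555 genes, called below 0.05). The standard error is the size of the log2 fold change over the square root of F. Of the identifiers, 60295 matched symbols of GENCODE 44, and the 269 others held 0.122% of the counts. Replicates differed by more than sampling noise (chi-square divided by its degrees of freedom, 2.27 for 2-D and 3.92 for 3-D). P-values measure the spread between these libraries.

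Canonical transcripts were aligned to hg38 with alternate contigs by minimap2 2.31-r1302, and a copy has at least 80% coverage and 98% identity. Reads count as shared where a copy exists or another gene covers at least 20% of the exons. Levels per kb use the canonical transcript of GENCODE 44. Values per library are given for called genes, the catalytic subunits and the largest changes each way in each particle. Members and lists were chosen with earlier results of these data known. Some genes of the lists are not reported here. Alternatives were DESeq2 1.42.0, edgeR's likelihood ratio test, DESeq2 size factors, library size only, no filter, a minimum of 10 counts per library, a replicate block, length and GC offsets (splines with 5 degrees of freedom), both together, counts summed with pseudogenes, and each library left out, where the lone sample is assumed to vary like the other condition. The procedure was tested on simulated counts, where it first missed the pass mark set for the share of moderate changes called. Larger changes were then added and the mark was moved to them, with the fit left as it was. In that test, changes as small as those of PSMC1 or PSMD8 were rarely called. Far fewer genes were changed there than were called in the data, so that share does not carry over to single genes. A gene that was not called is not shown to be unchanged. Python 3.11.15, pandas 2.3.3, numpy 2.4.6, scipy 1.17.1 and matplotlib 3.10.9 made tables and figures.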

Additional observations from a re-analysis of the deposited data

How the results depend on the processing

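Of the called proteasome genes, PSMA1, PSMA7, PSMB4, PSMC1, PSMD8 and PSMD10 were called under all 14 alternatives, PSMA3 under 13, PSMA5 under 11 and PSME3IP1 under 10, and none of the 9 changed sign. With library size only, 13 proteasome genes were called lower in place of 6 and the median of the tested proteasome genes was -0.065. That median was -0.0084 with at least 10 counts in every library and ranged from -0.0060 to 0.0067 when a library was left out, so its sign is not settled. The number called higher was 6 in place of 3 with a replicate block plus length and GC offsets, and ranged from 2 to 6 when a library was left out (6 without 3-D replicate 2). The number called lower ranged from 5 to 9.

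Over all tested genes, 1024 were called higher and 758 lower. These counts were 511 and 284 with DESeq2, 651 and 488 with edgeR's likelihood ratio test, and 514 and 1879 with library size only. Leaving out a library gave 560 to 1468 higher and 414 to 1175 lower, with the lowest counts without 2-D replicate 2 and the highest without 3-D replicate 1. The cause was not tested. The sample titles number the replicates and name no pairing. The correlation of replicate differences between conditions was -0.012 over the tested genes. Sampling noise of genes with few counts lowers such a correlation, so it does not settle whether the samples are paired. A replicate block gave 1223 higher and 944 lower over all tested genes and 3 higher and 7 lower among the proteasome genes, with PSMA6 added (edgeR, adjusted p = 0.0352). Depth limits PSMA8, PSMB10 and PSMB11, which had 17 or fewer counts in each library.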
